A study of Mus musculus with 8 samples.

Results

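The collagen chain genes of the mouse were examined in RNA from B16 tumours of mice, taken after a sort for CD8 T cells. The members were all genes with a symbol of the form Col, number, a, number and at least 1 protein-coding transcript, which gave 44 of the 55335 genes in the files. They comprised 11 fibrillar chains, 6 basement membrane chains of type IV and 27 other chains.

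The tumours came from CD36 KO mice on a C57BL/6 background and from wild-type C57BL/6 mice. Melanoma cells of the mouse line B16 were given intravenously in both genotypes, and tumours grew for 14 days. Each genotype was represented by 4 sequencing lanes of 1 library, here called the CD36_KO and the WT library. By the labels the Cd36 deletion is in the host mice, and how many animals a library pools, which allele was used and how the sort was gated were not stated there.

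Collagens are secreted proteins whose chains wind around one another in threes as a triple helix built on repeated glycine residues. Fibrillar collagens form the rope-like fibres of connective tissue, and type IV collagens form the sheet-like network of basement membranes under endothelium and epithelium. In tumours, collagen is known mainly as a product of fibroblasts, pericytes, endothelial cells and some tumour cells, and T cells are not known as a main source. Immune cells do carry receptors for it.

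Promoter stretches are printed for chains on which the results turn, because the fibrillar chains Col1a2 and Col3a1 were lower in near-equal measure and the type IV chains Col4a1 and Col4a2 had ratios close to each other. The sequences are from RefSeq on GRCm38.p6, 5′ to 3′ on the gene's own strand, taken from the 250 bases before the RefSeq start and outside annotated exons. The Col1a2 stretch is chr6:4505370-4505492 on the plus strand and the Col3a1 stretch is chr1:45311288-45311537 on the plus strand. By the gene position given below, which starts at 4504814, the Col1a2 stretch lies inside the annotated gene and not upstream of it. Capitals mark matches, on either strand, to the motifs searched, which are named after the sequences.
Col1a2: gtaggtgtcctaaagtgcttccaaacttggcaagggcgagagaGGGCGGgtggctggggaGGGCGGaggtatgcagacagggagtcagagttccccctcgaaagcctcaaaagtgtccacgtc
Col3a1: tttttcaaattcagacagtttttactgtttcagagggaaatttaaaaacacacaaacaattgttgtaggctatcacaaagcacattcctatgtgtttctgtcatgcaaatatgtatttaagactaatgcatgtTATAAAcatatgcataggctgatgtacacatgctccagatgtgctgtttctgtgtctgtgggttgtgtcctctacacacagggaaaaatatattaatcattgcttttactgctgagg

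The GC box motif GGGCGG matched 2 times in the 250 bases before the RefSeq start of Col1a2 and not before that of Col3a1. The TATA box motif TATAAA matched 1 time before Col3a1 and not before Col1a2. The CCAAT box motif matched 1 time before Col1a2, in the exonic bases not printed, and not before Col3a1. These promoters thus shared none of the letters searched. Col4a1 and Col4a2 lie head to head on chromosome 8, and their annotated first exons share the 22 bases at chr8:11312805-11312826, shown here on the plus strand with the GC box match in capitals.
Col4a1 and Col4a2: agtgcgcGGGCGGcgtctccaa

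Before its start, Col4a1 held 1 match to the CCAAT box, and Col4a2 held 1 match to the CCAAT box and 2 to the GC box. Of 32851 RefSeq promoters of the same 250 bases, 33.8% held the CCAAT box, 32.7% the GC box and 12.4% the TATA box letters. Promoters of 35 collagen genes were found, 38 in all, of which 34.2% held the CCAAT box, 57.9% the GC box and 13.2% the TATA box letters. A match is a description of letters and not a known binding site.

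The files hold estimated counts, which divide reads among transcripts, and TPM, which is scaled for transcript length. Counts were summed over transcripts and lanes and are given as CPM, counts per 1000000 of a composition-scaled library size. The libraries totalled 10363391 counts for CD36_KO and 10071960 for WT. Cd36 itself stood at 107, 86, 88 and 77 counts in the CD36_KO lanes, against 287, 299, 307 and 301 in the WT lanes, for a log2 ratio of -1.98 (-2.15 to -1.80, 95% interval for counting). The CD36_KO library thus held 25.4% of the WT level, counted over the whole gene, since the deleted stretch is not stated. Lanes of 1 library carry no variation between animals, so no p-value is given, and every interval covers counting error only. A gene is called higher or lower when its level differs at least 2-fold and the interval excludes no difference, and measured when its mean is at least 5 CPM.

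The sort markers and those of other cells differed between the libraries and are given here because they stand beside every collagen value. All 10 CD8 T cell markers were higher in the CD36_KO library, where they summed to 625 to 686 TPM per lane, against 132 to 144 TPM in the WT library. The most abundant were Trbc2 and Trac. All 12 melanoma markers were lower, at 442 to 455 TPM per lane in the CD36_KO library and 1252 to 1361 TPM in the WT library, with Dct and Pmel the most abundant at 104 and 105 TPM in CD36_KO, against 324 and 298 in WT. The calls of both lists were made on scaled CPM, where 10.8% of all measured genes were called lower and 6.5% higher. None of the 15 fibroblast and pericyte markers was at 0. This list summed to 32.1 to 42.2 TPM per CD36_KO lane and 27.3 to 32.1 TPM per WT lane. Its summed counts after scaling had a log2 ratio of -0.20 (-0.31 to -0.10), so the direction differed with the scale. Their part in the collagen results was not tested, and in such mixed RNA fewer cells of a type and less RNA per cell cannot be told apart.

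Collagen transcripts were scarcer in the CD36_KO library, and most of that difference lay in the fibrillar chains. All collagen genes together held 7706 counts in the CD36_KO library, which was 0.0744% of all counts (exact binomial 95% interval 0.0727% to 0.0760%). In the WT library they held 19166 counts or 0.190% (0.188% to 0.193%). After scaling the sum was 2.93-fold lower in the CD36_KO library (log2 ratio -1.55, -1.59 to -1.51). The fibrillar sum was 4.46-fold lower (-2.16, -2.22 to -2.10), the type IV sum 1.69-fold lower (-0.75, -0.82 to -0.68) and the sum of the other chains 2.28-fold lower (-1.19, -1.27 to -1.10). In summed TPM the differences were smaller. All collagens had 117 to 128 TPM per CD36_KO lane and 195 to 224 per WT lane, and fibrillar chains 37.0 to 50.7 and 116 to 133. Type IV lanes overlapped, at 33.2 to 45.0 and 33.0 to 45.2 TPM, and the other chains had 34.6 to 42.2 and 42.9 to 54.4.

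Of the 44 genes, 22 were measured. In the CD36_KO library 14 of these were called lower, 0 higher and 8 lay between, beside 10.8% of all 12177 measured genes called lower and 6.5% called higher. The median log2 ratio of the 22 chains was -1.67, and that of all measured genes was -0.13. A chain that is high in only 1 library can pass the filter through that library alone, so the count was also taken without it. Over all 44 chains, each of which had at least 1 count, 16 were called lower, 5 higher and 23 between, beside 7.51% and 7.24% of all genes with a count. The median was then -0.82. On the log2(TPM + 1) scale, which understates low genes and has no counting interval, 6 of the 22 measured chains were at least 2-fold lower, beside 2.7% of all measured genes. These were Col1a1, Col1a2, Col3a1, Col5a2, Col6a1 and Col6a2, and 0 were higher, beside 12.3%.

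**Figure D1:**
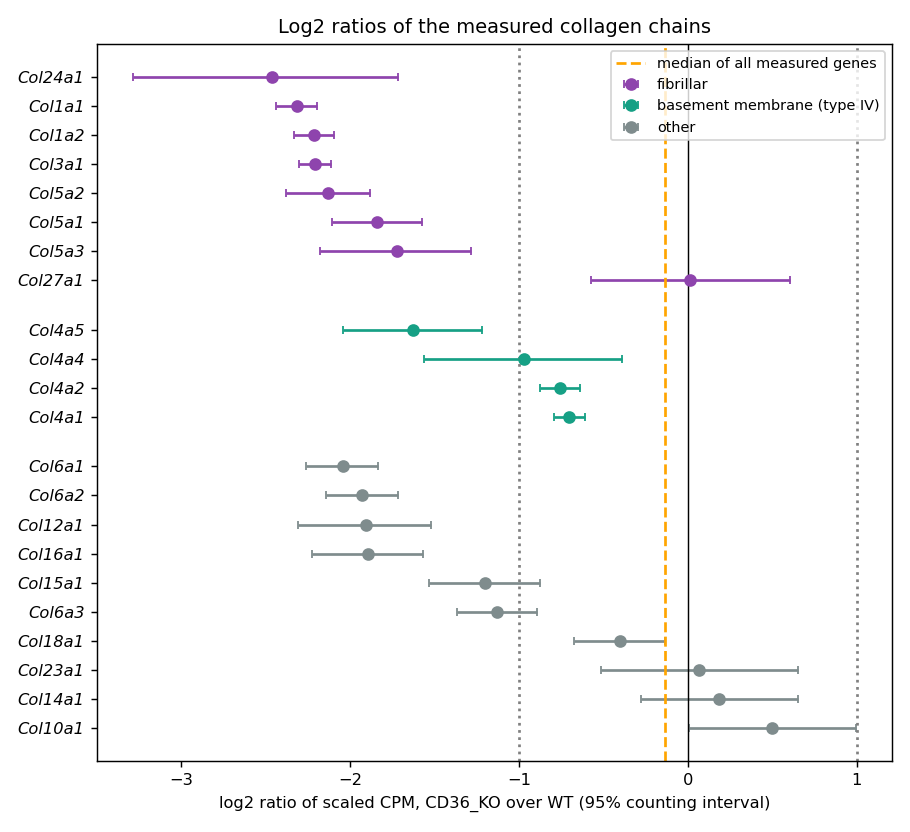
Log2 ratio of scaled CPM, CD36_KO over WT, on the x axis for each of the 22 measured chains, coloured by class, with bars for the 95% counting interval. Dotted lines mark a 2-fold difference and the dashed line the median of all measured genes (-0.13). The fibrillar chains apart from Col27a1 lie left of -1, while Col4a1 and Col4a2 lie at -0.70 and -0.76.

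The major fibrillar chains were reduced about equally. Col1a1 and Col1a2 encode the chains of type I collagen, the main protein of connective tissue fibres. Col1a1 (ENSMUSG00000001506.10; GRCm38 chromosome 11, 94936224 to 94953042) had 183, 154, 177 and 171 counts in the CD36_KO lanes, against 701, 700, 728 and 762 in the WT lanes. Every CD36_KO lane was far below every WT lane. The scaled level was 4.98-fold lower in the CD36_KO library (log2 ratio -2.32, -2.44 to -2.19).

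Col1a2 (chromosome 6, 4504814 to 4541544) had 179, 178, 196 and 175 counts in the CD36_KO lanes and 729, 669, 748 and 718 in the WT lanes. It was 4.64-fold lower (-2.21, -2.33 to -2.10), so its interval overlapped that of Col1a1. Col3a1 (chromosome 1, 45311538 to 45349706) encodes the chain of type III collagen, which mixes with type I in soft tissue fibres. It had the most counts of any collagen in the WT library, with 296, 282, 285 and 282 counts in the CD36_KO lanes and 1111, 1107, 1155 and 1102 in the WT lanes. It was 4.61-fold lower (-2.20, -2.30 to -2.11), and again no lane of one library reached a lane of the other.

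Of the minor fibrillar chains, all measured ones apart from Col27a1 were called lower. Type V collagen co-assembles with type I and limits fibril width. Its chain Col5a2 had 45, 45, 41 and 42 counts in the CD36_KO lanes and 162, 159, 148 and 172 in the WT lanes (log2 ratio -2.13, -2.38 to -1.88). Col5a1 had 37, 39, 47 and 35 counts in the CD36_KO lanes, against 116, 125, 125 and 113 in the WT lanes (-1.84, -2.11 to -1.58). Lanes of both genes were fully apart. Col5a3, with 59 counts in the CD36_KO library and 165 in the WT library, had a ratio of -1.72 (-2.18 to -1.28).

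Col24a1, a developmental bone-type fibrillar chain, had 18 and 84 counts in the CD36_KO and WT libraries and the lowest ratio of the measured members, -2.46 (-3.28 to -1.71). At 1.62 and 8.93 CPM it passed the filter through the WT library alone, and its log2(TPM + 1) ratio was -0.53. Col27a1, a cartilage-type fibrillar chain, had 56 and 47 counts and a ratio of 0.01 (-0.57 to 0.61). Only 43.7% of its counts in the CD36_KO library and 15.6% in the WT library were assigned to coding transcripts. Over coding transcripts alone its ratio was 1.70 (0.44 to 3.16), from 24.3 and 7.34 estimated counts, a mean under 5 CPM. All of these WT counts fell in WT lane 3, so this division is uncertain. Col2a1, Col11a1 and Col11a2, which are chains of cartilage fibrils, were not measured, at 3, 2 and 63 counts in the CD36_KO library against 4, 1 and 34 in the WT library.

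**Figure D2:**
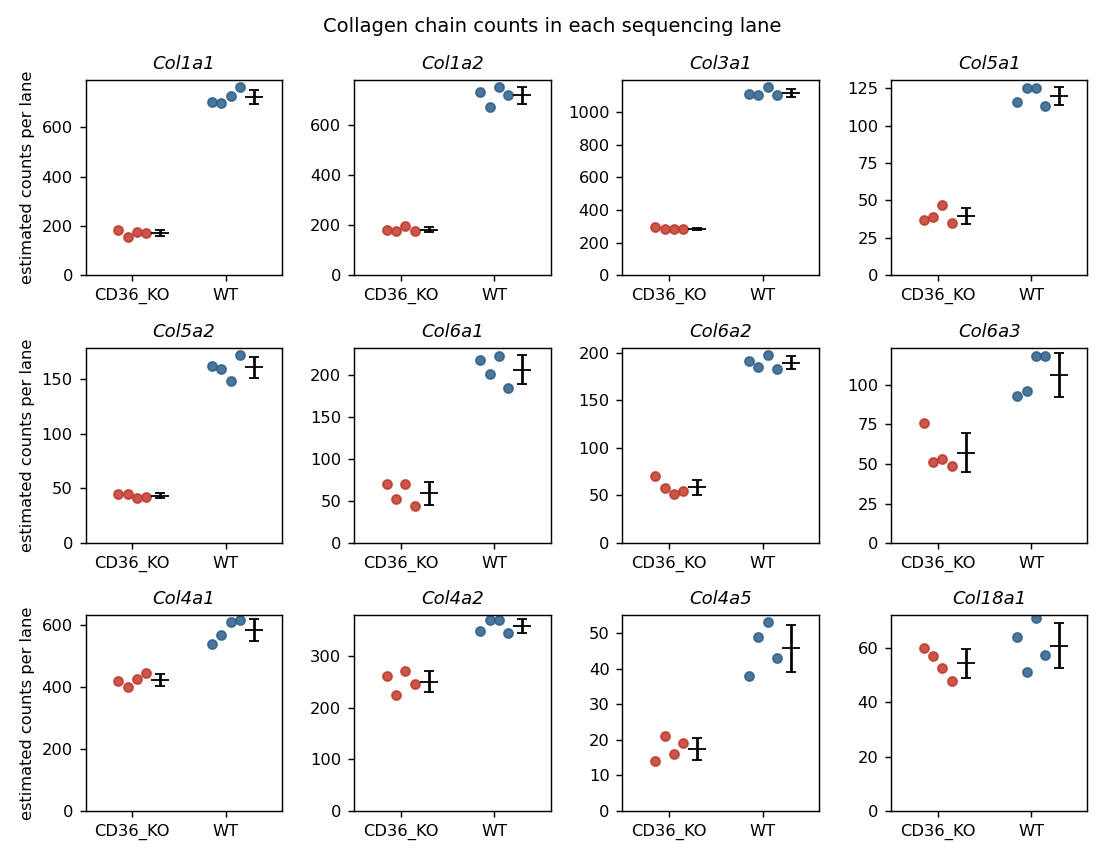
Estimated counts per lane (y axis, from 0) for 12 chains, with CD36_KO left and WT right. Dots are the 4 lanes of each library, and the black mark is their mean with the SD over lanes. CD36_KO lanes of Col1a1 lie between 154 and 183 counts and WT lanes between 700 and 762, whereas lanes of Col18a1 overlap.

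The chains of type IV collagen, which make up basement membranes, were split. Col4a1 and Col4a2 form the network found under most endothelium. Col4a1 (chromosome 8, 11198423 to 11312826) had 420, 401, 425 and 446 counts in the CD36_KO lanes, against 538, 569, 610 and 616 in the WT lanes. It was 1.63-fold lower in scaled level (-0.70, -0.79 to -0.61), short of the 2-fold rule. Col4a2 (chromosome 8, 11312805 to 11449287) had 261, 224, 270 and 245 counts in the CD36_KO lanes and 349, 370, 369 and 345 in the WT lanes, which was 1.69-fold lower (-0.76, -0.88 to -0.64). Lanes did not overlap for either gene, although the gap was far smaller than for type I collagen.

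On the TPM scale Col4a1 did not differ in the same direction, with a log2(TPM + 1) ratio of 0.01. The median of all measured genes was 0.07 with total counts and 0.37 on that TPM scale, and relative to the median of its scale Col4a1 stood at -0.57 with composition scaling and -0.36 with TPM. Col1a1 stood at -2.18 and -1.96 on the same terms. Over coding transcripts alone, Col4a1 had 16.9 ± 1.72 TPM in the CD36_KO library and 22.5 ± 4.26 TPM in the WT library (SD over 4 lanes of 1 library). A noncoding Col4a1 transcript of 416 bases weighed in the gene's TPM, with 29.8 estimated counts in the CD36_KO library and 17.95 in the WT library.

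Col4a3, Col4a4, Col4a5 and Col4a6 encode the chains of the more specialised networks of kidney, lung and smooth muscle. Col4a5 was called lower, with 14, 21, 16 and 19 counts in the CD36_KO lanes against 38, 49, 53 and 43 in the WT lanes (-1.62, -2.04 to -1.22). Its lanes were fully apart. Col4a4 had 41 and 68 counts in the CD36_KO and WT libraries (-0.97, -1.56 to -0.39), just short of the 2-fold rule. At 3.70 and 7.23 CPM it passed the filter through the WT library alone, and its lanes overlapped. It reached -1.20 without CD36_KO lane 1 and -1.05 without WT lane 3. The remaining pair lay under 5 CPM, Col4a3 with 26 and 10 counts and Col4a6 with 19 and 42.

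The type IV genes lie in head-to-head pairs, and the ratios within a pair were not always of the same sign. Col4a1 and Col4a2 start 21 bases apart and had ratios whose intervals overlapped. Col4a3 and Col4a4 start 72 bases apart on chromosome 1 and had ratios of opposite sign, 1.14 (0.04 to 2.36) for Col4a3, which was not measured, against -0.97 for Col4a4. The Col4a3 lanes overlapped, and its coding transcript of 8554 bases had a ratio of 0.98 (-0.20 to 2.29), so its direction is uncertain. Col4a5 and Col4a6 start 1309 bases apart on chromosome X and were both lower, at -1.62 and -1.38 (-2.25 to -0.57 for Col4a6, which was not measured). Col3a1 and Col5a2 are also neighbours, tail to tail on chromosome 1 with 24614 bases between them, and their ratios were -2.20 and -2.13.

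The make-up of the collagen counts differed with these values. Fibrillar chains held 40.1% of collagen counts in the CD36_KO library (39.0% to 41.2%; lanes 39.1% to 40.7%), against 61.0% in the WT library (60.3% to 61.7%; lanes 60.3% to 61.6%). Type IV chains held 37.0% in the CD36_KO library (35.9% to 38.0%) and 21.2% in the WT library (20.7% to 21.8%). These shares do not depend on how the libraries are scaled against each other. Neither their counting intervals nor their lanes overlapped.

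**Figure D3:**
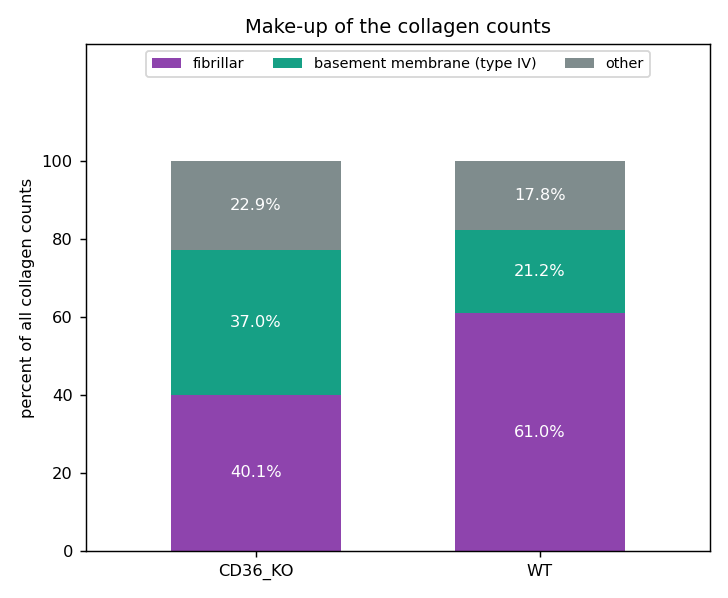
Percent of all collagen counts (y axis, from 0) held by fibrillar, type IV and other chains in the CD36_KO library (left) and the WT library (right). The fibrillar share is 40.1% in CD36_KO and 61.0% in WT.

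Among the other chains, the 3 measured type VI genes were all called lower. Type VI collagen forms beaded microfibrils around cells, built from Col6a1, Col6a2 and Col6a3 chains. Col6a1 had 71, 52, 70 and 44 counts in the CD36_KO lanes against 218, 202, 223 and 185 in the WT lanes, which was 4.12-fold lower (-2.04, -2.26 to -1.83). Col6a2 had 70, 58, 52 and 55 counts in the CD36_KO lanes and 191, 185, 198 and 183 in the WT lanes, which was 3.80-fold lower (-1.93, -2.14 to -1.71). Their genes are neighbours on chromosome 10, on the same strand with 85161 bases between them.

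Col6a3 differed less than its partner chains. It had 76, 51, 53 and 49 counts in the CD36_KO lanes and 93, 96, 118 and 118 in the WT lanes, which was 2.19-fold lower (-1.13, -1.37 to -0.90). The lanes did not overlap, but its interval lay wholly above those of Col6a1 and Col6a2. It stood at -0.93 with total counts for scaling and at -0.95 over coding transcripts alone, short of the 2-fold rule. The estimate for the longest Col6a3 transcript, of 10106 bases, was 21.5 counts in the CD36_KO library and 121 in the WT library, and that for the transcript of 9001 bases was 185 and 270. Within the WT library the lanes of the longest transcript ran from 13.3 to 47.0 counts, so this division is uncertain.

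FACIT collagens sit on the surface of fibrils and link them to other matrix. Col12a1 had 21, 14, 20 and 17 counts in the CD36_KO lanes and 62, 59, 60 and 48 in the WT lanes (-1.91, -2.31 to -1.52). Col16a1 had 35, 20, 24 and 25 counts in the CD36_KO lanes against 83, 80, 77 and 87 in the WT lanes (-1.89, -2.22 to -1.57), of which 41.1% in the CD36_KO library and 57.8% in the WT library were in coding transcripts. Both were called lower with lanes apart. Col14a1 was not called, at 94 counts in the CD36_KO library and 70 in the WT library (0.19, -0.27 to 0.65).

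The multiplexins Col15a1 and Col18a1 belong to basement membrane zones, and the end of the Col18a1 protein is released as endostatin. Col15a1 had 33, 40, 20 and 25 counts in the CD36_KO lanes and 61, 62, 63 and 44 in the WT lanes (-1.20, -1.53 to -0.87), and was called lower. Col18a1 had 60, 57, 53 and 48 counts in the CD36_KO lanes and 64, 51, 71 and 57 in the WT lanes (-0.40, -0.67 to -0.13). The Col18a1 lanes overlapped.

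Col18a1 has an upstream and a downstream promoter. The estimate for its transcript from the upstream start was 99.9 counts in the CD36_KO library and 175 in the WT library. For the transcript of 4791 bases from the downstream start it was 89.2 and 39.3. In the CD36_KO lanes the upstream transcript had 43.3, 30.3, 11.3 and 15.05 counts and the downstream one 7.69, 11.2, 38.8 and 31.5. The division thus differed between lanes of 1 library as much as between the libraries, and no isoform difference is drawn from it.

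Of the remaining measured chains, none was called. Col10a1, known from the cartilage of growing bone, had 22, 24, 25 and 24 counts in the CD36_KO lanes and 10, 18, 12 and 17 in the WT lanes (0.50, 0.01 to 1.00). Its CD36_KO lanes were all above its WT lanes, although the difference was under 2-fold. Col23a1, a transmembrane collagen, had 58 and 47 counts in the CD36_KO and WT libraries (0.07, -0.51 to 0.65).

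The 22 chains that were not measured had 1 to 63 counts in the CD36_KO library and 0 to 42 in the WT library. The 5 called higher among them were Col26a1 with 62 and 23 counts in the CD36_KO and WT libraries, Col22a1 with 52 and 18, Col8a1 with 46 and 15, Col4a3 with 26 and 10, and Col13a1 with 17 and 5. The 2 called lower were Col4a6, given above, and Col6a5 with 8 and 25 counts. The Col26a1 counts came almost wholly from a pair of retained-intron transcripts, of 578 and 2502 bases, so they are no measure of its coding RNA. Other chains in this range were Col7a1 of anchoring fibrils, with 10 counts in each library, the hemidesmosome collagen Col17a1 with 29 and 18, Col25a1 with 21 and 19, Col20a1 with 26 and 24, Col9a3 with 17 and 9, and Col6a4, Col6a6, Col8a2, Col9a1, Col9a2, Col19a1 and Col28a1 with at most 6 counts in the CD36_KO library and 9 in the WT library.

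The threshold passed between neighbours in size. Just inside it were Col6a3 at -1.13 and Col15a1 at -1.20, and just outside were Col4a4 at -0.97 and Col4a2 at -0.76.

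Levels were compared between genes on the TPM scale only. Among the measured chains of the CD36_KO library Col4a1 had the highest mean at 27.5 ± 5.43 TPM, followed by Col3a1 at 19.9 ± 4.61, Col4a2 at 9.86 ± 0.44, Col1a2 at 9.49 ± 1.73 and Col1a1 at 7.59 ± 0.99 TPM (SD over 4 lanes). The unmeasured Col26a1, with counts almost wholly from retained-intron transcripts, had 7.92 ± 1.88 TPM there. Lanes of Col4a1 and Col3a1 overlapped, and over coding transcripts alone they did not differ beyond their spread, at 16.9 ± 1.72 TPM for Col4a1 and 17.1 ± 2.56 TPM for Col3a1. Col4a2 and Col1a2 did not differ beyond theirs either. In the WT library Col3a1 was highest at 54.1 ± 8.10 TPM, followed by Col1a2 at 28.8 ± 2.33, Col4a1 at 27.3 ± 4.70, Col1a1 at 24.98 ± 1.56 and Col4a2 at 11.7 ± 0.93 TPM. There neither Col1a2 and Col4a1 nor Col4a1 and Col1a1 differed beyond the lane spread of Col4a1.

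**Figure D4:**
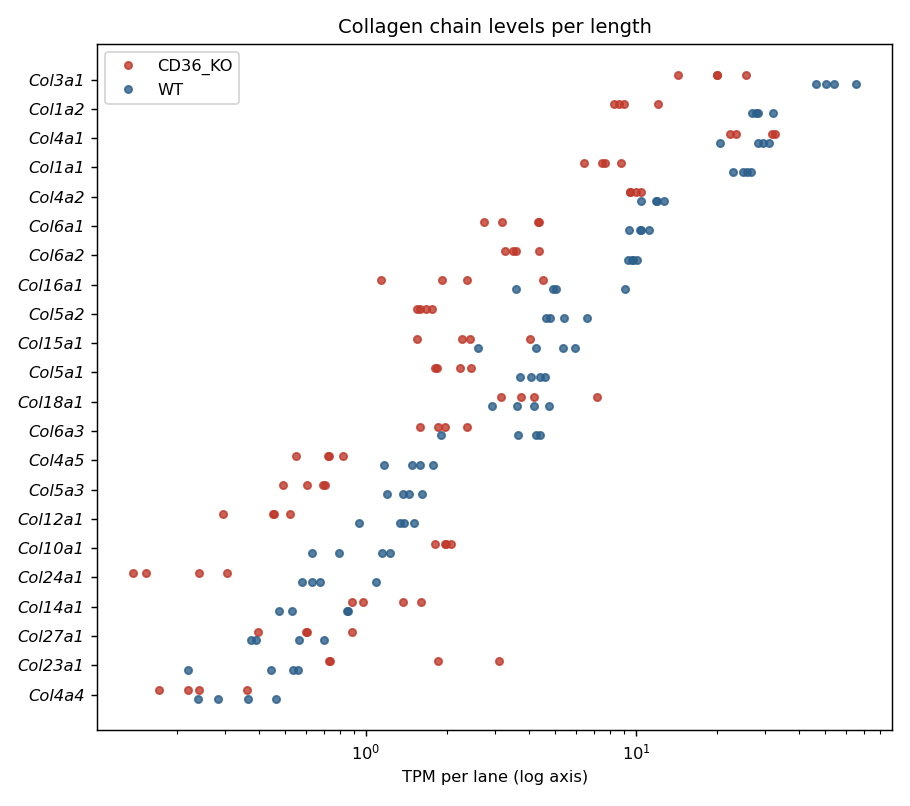
TPM in each lane (x axis, log scale) for the 22 measured chains, ordered by the WT mean, with CD36_KO lanes in red above WT lanes in blue. Col3a1 leads in WT at 54.1 TPM, while Col4a1 lanes of both libraries overlap.

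Ratios between partner chains were taken in TPM within each lane. The Col1a1 to Col1a2 ratio was 0.821 ± 0.199 in the CD36_KO library and 0.871 ± 0.090 in the WT library (SD over 4 lanes). The Col6a1 to Col6a2 ratio was 0.997 ± 0.237 and 1.07 ± 0.063 in the CD36_KO and WT libraries. The Col4a1 to Col4a2 ratio was 2.79 ± 0.544 and 2.32 ± 0.282, and 1.78 ± 0.225 and 2.02 ± 0.379 over coding transcripts alone. Each of these differences was smaller than the larger of its lane SDs. The Col6a3 to Col6a1 ratio, chosen after its values were seen, was 0.547 ± 0.125 in the CD36_KO library and 0.348 ± 0.125 in the WT library, and 0.459 ± 0.090 and 0.285 ± 0.0999 over coding transcripts alone. That difference was larger than either lane SD, although lanes of the libraries overlapped. Across types, Col1a1 stood at 0.280 ± 0.038 of the Col4a1 level in the CD36_KO library and at 0.929 ± 0.125 in the WT library, a ratio also chosen after its values were seen. Over coding transcripts alone it was 0.426 ± 0.053 and 1.12 ± 0.148, and on neither count did lanes of the libraries overlap.

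The enzymes that fold and modify collagen chains were in part lower in the CD36_KO library too. Of 24 genes on this list 20 were measured, with 13 called lower, 0 higher and 7 between (median log2 ratio -1.48), beside 10.8% of all measured genes called lower. Without the filter 14 of the 24 were called lower and 0 higher, beside 7.51% and 7.24% of all genes with a count. On the log2(TPM + 1) scale 4 of the measured genes were at least 2-fold lower, beside 2.7%. The lowest were Fkbp14 (-2.72), a peptidyl-prolyl isomerase of the endoplasmic reticulum, and Plod2 (-2.52), the lysyl hydroxylase of telopeptides. Creb3l1 (-2.12), a transcription factor that drives type I collagen genes in bone, and P4ha2 (-2.03), a prolyl hydroxylase subunit, followed. Serpinh1, the collagen-specific chaperone HSP47, had 637 counts in the CD36_KO library and 2106 in the WT library (-1.96, -2.09 to -1.84). Fkbp10 had a ratio of -1.80. Fkbp14, Creb3l1, Fkbp10 and P3h2, the last also called lower (-1.78), stood at 1.53, 2.25, 4.42 and 2.25 CPM in the CD36_KO library. These genes passed the filter through the WT library alone. P4hb, which serves other proteins beside collagen, had the highest mean TPM over both libraries and a ratio of -1.39. In the CD36_KO library the prolyl isomerase gene Ppib, which was not called (-0.52), stood above it, at 64.0 against 51.3 TPM.

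Genes that process and crosslink collagen outside the cell were less uniform. Of 9 measured members out of 16, 6 were called lower, 1 higher and 2 between (median -1.12), beside 10.8% of all measured genes called lower and 6.5% higher. Lox, the lysyl oxidase that crosslinks fibrils, had 38 and 151 counts in the CD36_KO and WT libraries (-2.23, -2.78 to -1.71). The procollagen C-proteinase gene Bmp1 (-1.54) and the lysyl oxidase relative Loxl2 (-1.44) were lower, as were the transglutaminase gene Tgm2 (-1.27), Pcolce (-1.12) and Loxl3 (-1.08). With total counts for scaling Pcolce and Loxl3 stood at -0.92 and -0.88, short of 2-fold, and Loxl3 stood at -0.99 when WT lane 3 or WT lane 4 was left out. Of the measured members 0 were 2-fold lower and 1 was 2-fold higher in log2(TPM + 1), beside 2.7% and 12.3% of all measured genes. Without the filter 8 of 15 members with a count were called lower and 1 higher, beside 7.51% and 7.24% of all genes with a count. The higher member was Pcolce2, an enhancer of procollagen cleavage like Pcolce, with 155 and 28 counts (2.23, 1.64 to 2.87). Lox, at 3.42 CPM in the CD36_KO library, and Pcolce2, at 2.98 CPM in the WT library, each passed the filter through the other library alone.

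Collagen-binding proteoglycans and fibril regulators moved in both directions. Of 9 measured members out of 17, 3 were called lower, 4 higher and 2 between (median -0.64), beside the same 10.8% and 6.5%. The fibrillin gene Fbn1 (-1.32), the decorin gene Dcn (-1.31) and Sparc (-1.23), a collagen-binding glycoprotein and the most abundant member, were lower. Dermatopontin, encoded by Dpt, had 102 and 19 counts in the CD36_KO and WT libraries (2.19), and the osteoglycin gene Ogn had 226 and 47 (2.03). The periostin gene Postn had 570 and 119 counts (2.02, 1.73 to 2.32), and Prelp had 221 and 91 (1.04), which was 0.94 without WT lane 1 and 0.99 without CD36_KO lane 3, short of 2-fold. On the log2(TPM + 1) scale 0 members were 2-fold lower and 4 were 2-fold higher, beside 2.7% and 12.3% of all measured genes. The median there was 0.05, of the opposite sign. Dpt and Ogn, at 2.02 and 4.996 CPM in the WT library, passed the filter through the CD36_KO library alone. Without the filter 5 of 16 members with a count were called lower and 4 higher, beside 7.51% and 7.24% of all genes with a count.

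Collagen receptors were mostly between. Of 8 measured members out of 12, 2 were called lower, 0 higher and 6 between (median -0.38), beside 10.8% of all measured genes called lower, and over so few members nothing is read from that. Without the filter 2 of the 12 were called lower and 1 higher, beside 7.51% and 7.24% of all genes with a count. The higher one was Gp6, with 51 and 8 counts in the CD36_KO and WT libraries (2.43, 1.35 to 3.72). In log2(TPM + 1) 0 of the measured members were 2-fold lower and 0 higher, beside 2.7% and 12.3% of all measured genes, and their median was 0.05. The discoidin domain receptor gene Ddr1 had 109 and 431 counts in the CD36_KO and WT libraries (-2.22), and the adhesion receptor gene Adgrg1 160 and 491 (-1.86). Itgb1, the shared integrin beta chain and the most abundant member, had a ratio of -0.60. Lair1, an inhibitory collagen receptor of leukocytes named here after its values were seen, had 440 and 348 counts (0.10, -0.11 to 0.31).

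**Figure D5:**
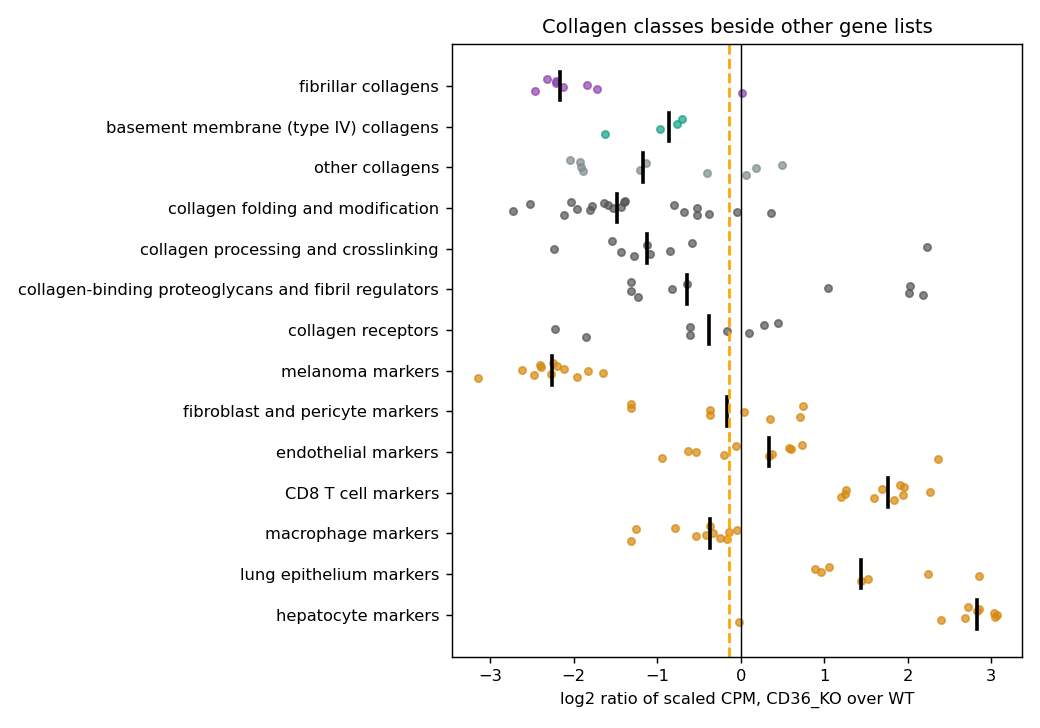
Log2 ratio of scaled CPM, CD36_KO over WT (x axis), for the measured genes of each collagen class and each other list. Dots are genes, black bars the median of a list, and the dashed line the median of all measured genes. Fibrillar collagens (median -2.17) lie near the melanoma markers (median -2.26) on this axis, while fibroblast and pericyte markers have a median of -0.16.

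Marker lists were set beside the collagen classes without any test of their part in them. Fibrillar collagens had a median of -2.17 over 8 measured chains. The melanoma list had one of -2.26 over 12 genes, with a range of -3.15 to -1.65. Of the fibroblast and pericyte list 8 genes were measured, with a median of -0.16 and a range of -1.32 to 0.75. Of these 2 were called lower and 0 higher, beside 10.8% and 6.5% of all measured genes. The lower members were Pdgfra, a receptor of fibroblasts, with 173 and 365 counts in the CD36_KO and WT libraries, and Dcn, which also stands in the proteoglycan list. Among the list's unmeasured genes Lum was at 2 and 5 counts and Fap at 19 and 7. Without the filter 2 of the 15 genes were called lower and 2 higher, beside 7.51% and 7.24% of all genes with a count. Over so few members nothing is read from these counts. The higher ones were Tcf21 with 60 and 4 counts and Dpep1 with 42 and 12. The pericyte marker Pdgfrb had 250 and 126 counts (0.75, 0.44 to 1.07), and Des, second to Dcn by mean TPM over both libraries, 258 and 134 (0.71).

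None of the 11 measured endothelial markers was called lower and 1 was called higher, which is near the 6.5% of all measured genes called higher. Their median was 0.34, beside the type IV median of -0.86 over 4 measured chains. Pecam1 and Egfl7, the most abundant of them by mean TPM over both libraries, had ratios of 0.73 and -0.20. Erg was the higher member, with 715 and 118 counts in the CD36_KO and WT libraries (2.36). Macrophage markers, with Lyz2 (-0.36) and Cd68 (-0.79) highest by that mean, had a median of -0.36. Lung epithelium markers, led by Scgb1a1 (2.24) and Sftpc (1.06), had a median of 1.44, and hepatocyte markers, led by Alb (2.72) and Trf (-0.02), one of 2.84.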

How the data were processed

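Lanes of 1 library per genotype, 4 each and 8 in all, were the samples. The submitters' processing notes list kallisto, DESeq2 and the build GRCm38.p6, without the annotation release or strand setting. The deposited estimated counts per transcript were not normalised, with 33.8% to 35.4% of them not whole in a lane. TPM, also deposited, is scaled for effective length and lane total, per the file headers. The effective lengths implied mean fragments of 194 bases in the CD36_KO library and 161 in the WT library, which bears on the TPM of short transcripts.

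Counts were summed over transcripts of a gene and over lanes, rounded, and scaled with TMM factors from edgeR 4.0.16 (1.07 for CD36_KO, 0.934 for WT) in R 4.3.3. Depth per lane was 2569962 to 2611740 counts in CD36_KO and 2497048 to 2538468 in WT. Log2 ratios carry exact Clopper-Pearson counting intervals at 95%. No molecular identifiers are named, so reads need not be separate molecules. The steps were tested on simulated data. Gene positions came from GENCODE M21, in which all 44 members matched. The collagen genes, classes and lists were chosen with earlier results of these data known. The text gives per-lane or library values for all measured chains, and of each machinery or receptor list up to 6 called genes per direction by size with the most abundant member. Alternatives were other scalings, TPM with pseudocounts of 1 and 0.1, no filter or 20 CPM, coding transcripts only, and each lane left out.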

Additional observations from a re-analysis of the deposited data

Results flagged for a closer look

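Of 58 sets of 4 lanes examined, 6 had a lane set apart from the other lanes of its library, where chance gives about 1 in 20. In the CD36_KO library these were Col1a2 in lane 3, at 75.1 CPM of the lane's own total against 68.1 to 69.3 in the others, and Col3a1 in lane 1, at 113 against 109 to 110. Col6a3 in CD36_KO lane 1 stood at 29.1 CPM against 19.1 to 20.3. In the WT library Col12a1 in lane 4 stood at 19.2 CPM against 23.6 to 24.4, and Col15a1 in lane 4 at 17.6 against 24.0 to 24.9. The Col1a1 to Col4a1 ratio in TPM was 1.12 in WT lane 1 against 0.855 to 0.876 in the other WT lanes. Each of these lanes remained on its own library's side of the other genotype's lanes.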

How the results depend on the processing

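Among the 14 chains called lower, each was lower under every alternative run, though not always 2-fold. The number of collagen genes called lower was 6 with log2(TPM + 1), beside 2.7% of all measured genes, and 9 of 12 genes at 20 CPM or more. The number called higher was 5 without a filter, beside 7.24% of all genes with a count, and 1 over coding transcripts. No share of all genes is given here for 20 CPM, coding transcripts or a lane left out, so nothing is read from those counts. On the log2(TPM + 1) scale, which has no counting interval, 4 folding genes, 0 processing genes, 0 fibril regulators and 0 receptors were 2-fold lower. In the same order 0, 1, 4 and 0 were 2-fold higher, beside 12.3% of all measured genes. The median log2 ratio of collagen genes was -1.48 with total counts, -0.60 with log2(TPM + 1), -0.82 without a filter, -1.91 at 20 CPM or more and -1.47 over coding transcripts. Over coding transcripts the Col4a1 to Col4a2 ratio was 1.78 in CD36_KO and 2.02 in WT. Coding collagen transcripts held 0.0710% and 0.185% of all counts, noncoding ones included in the total. Ratios of opposite sign were 0.0094 and 0.0097 for Col4a1 and 0.19 and 0.23 for Col18a1, with pseudocounts of 1 and 0.1 TPM. With 1 lane left out Col23a1 ran from -0.090 to 0.26 and Col27a1 from -0.16 to 0.22, and 14 to 15 chains were called lower. Causes were not tested. No paired analysis was possible because lanes of 1 library per genotype give no test. Depth limits chains under about 5 CPM, where intervals span more than 2-fold.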
